A study of Mus musculus with 32 samples.

Results

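The interferon-inducible GTPases examined here are 10 genes, of 54532 in the deposited files, chosen by name, with earlier results of these data known. They are 7 guanylate-binding proteins (Gbp2, Gbp3, Gbp4, Gbp5, Gbp6, Gbp7 and Gbp9) and 3 immunity-related GTPases (Igtp, Irgm1 and Iigp1). All 10 passed the filter on low counts. Their RNA was measured in the hippocampus of 32 mice aged 12 months, 8 (4 females and 4 males) in each of 4 groups. WT mice were C57BL/6J, and 5xFAD mice carry transgenes with familial AD mutations, among them human APP with the Swedish, Florida and London mutations, driven in neurons by Thy1 regulatory sequences. The drug D-45113, a hydroxyl dendrimer that carries an inhibitor of the microglial receptor CSF1R, was injected IP into 1 group of each genotype (WT/D-45113, 5xFAD/D-45113). The other groups (WT/Veh, 5xFAD/Veh) were injected with the dendrimer alone, so that all 4 groups received dendrimer.

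Guanylate-binding proteins and immunity-related GTPases are among the genes that cells induce most strongly in response to interferon-gamma. The receptor of interferon-gamma acts through the kinases JAK1 and JAK2 and, further down, on promoters through gamma-activated sites, while interferon regulatory factors bind interferon-stimulated response elements. The proteins assemble on membranes that enclose parasites and bacteria, disrupt them and expose their contents to inflammasomes, with help from the conjugation machinery of autophagy. In the brain they are known as part of the interferon-responsive states of microglia, astrocytes and endothelial cells.

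The guanylate-binding proteins among the members lie in clusters of the mouse genome. In mm10, Gbp2 (chr3:142620602-142638008), Gbp3 (chr3:142560026-142573209), Gbp5 (chr3:142493978-142522344) and Gbp7 (chr3:142530342-142550149) are neighbours on the plus strand of chromosome 3. Gbp4 (chr5:105115767-105139586), Gbp6 (chr5:105270702-105293698) and Gbp9 (chr5:105077630-105139539) lie together on the minus strand of chromosome 5. Igtp (chr11:58199556-58207591) and Irgm1 (chr11:48861968-48871683) are on chromosome 11, on the plus and the minus strand.

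Promoter windows from RefSeq (GRCm38.p6), running from 250 bases before the start site of the transcript to 50 after it, matched 6 of the 10 members in 7 windows. Gbp4, Gbp6, Gbp9 and Iigp1 had no entry. The sequences below are shown because they hold the letters through which interferon signalling is known to act. Each is the 170 bases before the start, 5′ to 3′ on the strand of the gene, and capitals mark matches on either strand to GAAANNGAA, the core of the interferon-stimulated response element (ISRE), or to TTCNNNGAA, the gamma-activated site (GAS). They are Gbp2 (chr3:142620493-142620662, plus strand), Gbp3 (chr3:142559874-142560043, plus strand, the upstream window of its 2), Gbp5 (chr3:142496764-142496933, plus strand), Gbp7 (chr3:142530166-142530335, plus strand), Igtp (chr11:58199386-58199555, plus strand) and Irgm1 (chr11:48871421-48871590, minus strand).
Gbp2: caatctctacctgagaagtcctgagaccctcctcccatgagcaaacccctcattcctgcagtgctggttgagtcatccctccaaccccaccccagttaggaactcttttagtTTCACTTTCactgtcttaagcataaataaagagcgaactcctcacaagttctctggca
Gbp3: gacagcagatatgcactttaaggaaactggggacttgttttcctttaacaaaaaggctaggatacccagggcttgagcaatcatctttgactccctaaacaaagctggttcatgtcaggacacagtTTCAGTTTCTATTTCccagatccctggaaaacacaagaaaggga
Gbp5: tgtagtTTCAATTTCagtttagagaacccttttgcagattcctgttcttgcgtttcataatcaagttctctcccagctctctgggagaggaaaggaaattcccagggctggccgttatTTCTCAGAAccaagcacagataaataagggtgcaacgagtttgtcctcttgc
Gbp7: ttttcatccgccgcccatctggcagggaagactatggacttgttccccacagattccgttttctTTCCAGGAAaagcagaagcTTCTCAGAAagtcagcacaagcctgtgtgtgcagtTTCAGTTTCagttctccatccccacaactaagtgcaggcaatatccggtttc
Igtp: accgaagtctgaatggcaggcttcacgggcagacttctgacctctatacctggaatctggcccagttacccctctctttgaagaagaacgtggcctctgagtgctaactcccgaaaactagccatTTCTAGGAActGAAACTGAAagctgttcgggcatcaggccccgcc
Irgm1: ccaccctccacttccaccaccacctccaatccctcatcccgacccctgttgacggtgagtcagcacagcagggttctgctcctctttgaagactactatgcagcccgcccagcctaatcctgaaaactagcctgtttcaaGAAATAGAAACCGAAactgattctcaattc

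The ISRE core was found in the windows of 6 of 6 members, against 9.76% of the 27025 genes with a window (8.56% of all 32851 windows). The GAS was found in 3 of 6 (Gbp5, Gbp7 and Igtp), against 9.55% of genes (8.30% of windows). Those 3 genes held both motifs, against 1.42% of genes. No ISRE core overlapped a GAS in these windows. In Gbp3 and Irgm1 a pair of ISRE cores overlapped each other. In Igtp the GAS, TTCTAGGAA at -45 to -37, and the ISRE core, GAAACTGAA at -34 to -26, were separated by the letters ct alone. Gbp5 and Gbp7 shared the same GAS, TTCTCAGAA, at -52 to -44 and at -87 to -79. Another GAS of Gbp5, TTCTGGGAA at -245 to -237, lies outside the bases shown. A match of letters is a description of the window and not evidence of binding.

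**Figure D1:**
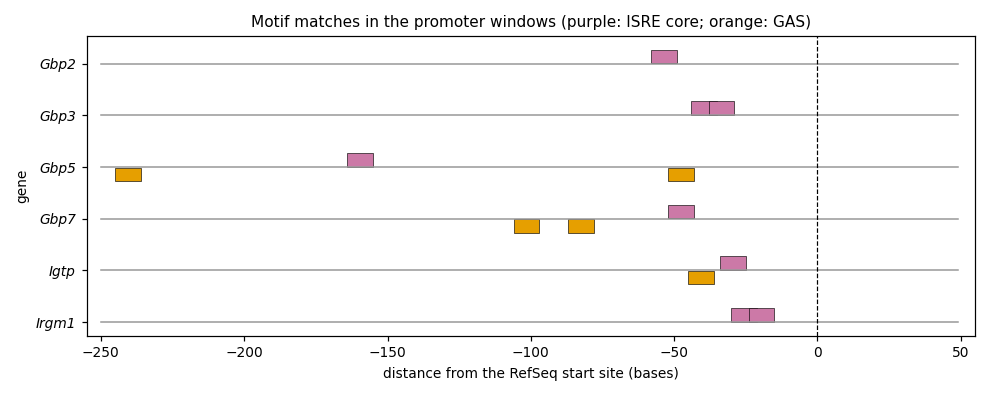
Places of the motif matches in the promoter windows of 6 members; the x axis is the distance in bases from the RefSeq start site (dashed line) and each row is 1 gene, with purple boxes for the ISRE core and orange boxes for the GAS. All 6 rows carry an ISRE core, which in 5 of them lies between -58 and -16 and in Gbp5 at -164 to -156, and 3 rows carry a GAS.

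The depth was 10707410 to 30368498 counts per mouse. Levels are given as CPM (counts relative to the TMM-scaled library total), which compare 1 gene between mice, and as FPKM where genes are compared with each other. Thy1, whose regulatory sequences drive the transgenes, was above the highest WT mouse (529 CPM) in 8 of 8 5xFAD/Veh mice and in 6 of 8 5xFAD/D-45113 mice. In the treated 5xFAD group, 1M (423 CPM) and 4F (523 CPM) were not, so results are also given without these libraries where they change. Another library, 5xFAD/Veh mouse 1F, was the highest of its group for 10 of 10 members, as it was for 14.7% of the 16723 genes tested (values without it stand beside the main comparisons). Of the hippocampal markers, the glutamatergic neuron gene Slc17a7 ranged from 353 to 2244 CPM and the granule cell gene Prox1 from 28.3 to 163 CPM. Markers of tissue next to the hippocampus varied widely between libraries, with 10 choroid plexus genes summing to 35.0 to 5226 CPM and 10 thalamus genes to 174 to 1914 CPM.

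The first comparison asks how the members differ between 5xFAD and WT mice under vehicle. Of the 10 members, 8 rose in 5xFAD/Veh compared to WT/Veh mice and 0 fell, where 3.65% of all genes tested rose. The largest changes were those of Iigp1, Gbp2 and Gbp6, each over 6-fold with all 8 mice, and this size and order rested on mouse 1F. Without it Gbp6 had the largest log2 fold change (2.33), and Iigp1 (1.91), Gbp2 (1.91) and Irgm1 (1.89) were level. Gbp4 and Gbp7 did not pass the test. The median log2 fold change of the 10 members was 1.92, against -0.02 over all genes. Calls are at an adjusted p under 0.05 from edgeR's quasi-likelihood test, with Benjamini-Hochberg adjustment over all genes tested.

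Irgm1 regulates the effector GTPases of its family and acts in autophagy and at lysosomes. It had the smallest p of the members. Its level ranged from 4.17 to 10.9 CPM in WT/Veh mice (median 8.63) and from 25.3 to 87.9 CPM in 5xFAD/Veh mice (median 31.5). The lowest 5xFAD/Veh mouse was above the highest WT/Veh mouse, and the log2 difference was 2.18 (SE 0.211, adjusted p = 1.64e-09, edgeR). Igtp, also called Irgm3, is another regulatory member, which sits on the endoplasmic reticulum and lipid droplets. It ranged from 2.42 to 7.51 CPM (median 3.65) in WT/Veh mice and from 7.24 to 61.7 CPM (median 10.4) in 5xFAD/Veh mice. The groups overlapped by a single mouse on each side, and 7 of 8 5xFAD/Veh mice were above the WT/Veh maximum (log2 fold change 2.18, SE 0.343, adjusted p = 2.50e-05). Iigp1 is an effector that binds the vacuoles of Toxoplasma and is held inactive by the regulatory members. It ranged from 0.788 to 3.38 CPM (median 1.44) in WT/Veh mice and from 3.47 to 42.5 CPM (median 6.41) in 5xFAD/Veh mice. These ranges came close without overlapping (log2 fold change 2.71, SE 0.453, adjusted p = 6.77e-05).

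Among the guanylate-binding proteins of chromosome 3, Gbp2 coats pathogen vacuoles and bacteria in mouse cells. It ranged from 2.80 to 6.19 CPM (median 3.65) in WT/Veh mice and from 10.4 to 97.0 CPM (median 12.9) in 5xFAD/Veh mice. All 8 5xFAD/Veh mice were above all WT/Veh mice, which is a log2 difference of 2.63 (SE 0.361, adjusted p = 2.34e-06). Gbp5 promotes assembly of the NLRP3 inflammasome in mouse macrophages. Its range was 2.92 to 5.27 CPM (median 4.09) in WT/Veh mice and 7.55 to 35.8 CPM (median 9.77) in 5xFAD/Veh mice. Again the groups did not overlap (log2 fold change 1.67, SE 0.277, adjusted p = 5.33e-05). Gbp3 had 1.42 to 7.40 CPM (median 6.07) in WT/Veh mice and 9.25 to 27.3 CPM (median 16.2) in 5xFAD/Veh mice, also without overlap (log2 fold change 1.56, SE 0.273, adjusted p = 0.000122). Gbp7, which in mouse macrophages brings subunits of the NADPH oxidase to phagosomes, differed less. It had 0.838 to 6.56 CPM in WT/Veh mice and 3.00 to 8.71 CPM in 5xFAD/Veh mice, of which 3 were above the WT/Veh maximum (log2 fold change 0.82, SE 0.334, adjusted p = 0.276).

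The chromosome 5 members had lower counts. Gbp6 ranged from 0.121 to 0.988 CPM (median 0.475) in WT/Veh mice and from 1.55 to 7.58 CPM (median 2.45) in 5xFAD/Veh mice. Every 5xFAD/Veh mouse was above every WT/Veh mouse (log2 fold change 2.63, SE 0.480, adjusted p = 0.000232). The values of Gbp6 are uncertain, since 64.5% of the 100-base stretches of its transcripts also occur in another gene, most of them in the overlapping gene Gm43302, which had 1 count in 5xFAD/Veh mouse 1F and 0 in the other libraries. Gbp9 rose by 0.92 on the log2 scale (SE 0.249, adjusted p = 0.0227). Its mean level was 3.53 ± 0.989 CPM in WT/Veh and 6.70 ± 3.08 CPM in 5xFAD/Veh mice (SD, n = 8 each), and 6 of 8 5xFAD/Veh mice were above the WT/Veh maximum. Gbp4 had 1.01 ± 0.569 CPM in WT/Veh and 2.46 ± 2.47 CPM in 5xFAD/Veh mice (SD, n = 8 each), with 2 mice above the WT/Veh maximum (log2 fold change 1.26, SE 0.471, adjusted p = 0.198). In all, 6 of the 10 members (Gbp2, Gbp3, Gbp5, Gbp6, Irgm1 and Iigp1) had every 5xFAD/Veh mouse above every WT/Veh mouse, as did 2.21% of all genes tested. Of the stretches of Gbp7, 9.59% were shared with Gm43802 (at 0 counts in every library), and the shared part was 5.16% for Igtp (with Irgm2) and at most 1.65% for the other members.

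**Figure D2:**
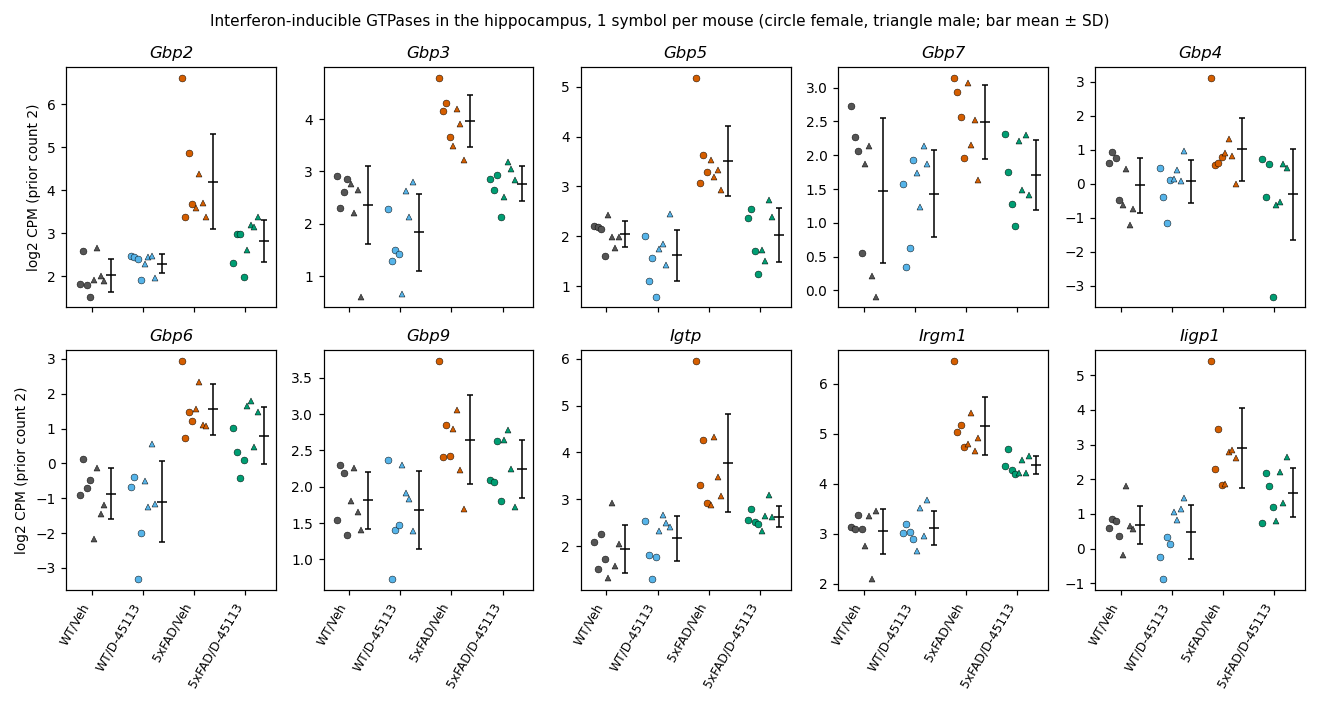
Level of each member in log2 CPM (prior count 2), 1 symbol per mouse (circles female, triangles male), by group, with bars for the mean ± SD of 8 mice; each panel has its own y axis. The 5xFAD/Veh mice (orange) lie above the WT/Veh mice (gray) without overlap in 6 panels, and the single highest orange circle in every panel is mouse 1F.

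Without mouse 1F, 7 of the members were called higher in 5xFAD/Veh mice, where 3.59% of all genes were. The call of Gbp9 was lost (log2 fold change 0.71, adjusted p = 0.108), as it was without 5xFAD/Veh mouse 2M, WT/Veh mouse 4F or WT/Veh mouse 4M. Gbp2 then had 15.5 ± 6.92 CPM in 7 5xFAD/Veh mice in place of 25.6 ± 29.5 CPM in 8 (SD), and a log2 fold change of 1.91 (adjusted p = 1.27e-07). The corresponding values were 1.58 for Igtp, 1.42 for Gbp3 and 1.25 for Gbp5, and for the members with no call 0.72 for Gbp7 and 0.65 for Gbp4. Microglial genes moved with the genotype too. Of 15 microglia markers, 15 were higher in 5xFAD/Veh mice (median log2 fold change 1.42), and their summed level was 507 to 733 CPM in WT/Veh mice and 1573 to 2073 CPM in 5xFAD/Veh mice. Without mouse 1F the same 15 were called. Their part in the result was not tested, and in bulk tissue more cells of a type and more RNA per cell cannot be told apart.

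The order of the members, compared per transcript length, also differed between the groups. In WT/Veh mice Igtp (1.99 FPKM), Gbp3 (1.72), Gbp2 (1.66) and Irgm1 (1.48) were the most abundant and overlapped in their mean ± SD. A gap followed to Gbp9 (0.692), Gbp5 (0.623), Gbp7 (0.600) and Iigp1 (0.5258), and another to Gbp4 (0.136) and Gbp6 (0.0872). In 5xFAD/Veh mice Gbp2 (10.3 FPKM), Igtp (9.04), Irgm1 (6.71) and Gbp3 (5.03) came first and Iigp1 (3.44) followed, with each neighbour in the order overlapping the next in its mean ± SD. In 5xFAD/D-45113 mice the first places were held by Irgm1 (3.61 FPKM), Igtp (3.08), Gbp2 (2.94) and Gbp3 (2.12), and a gap separated these from Iigp1 (1.06). The 10 members summed to 9.52 ± 1.88 FPKM in WT/Veh and to 39.7 ± 33.2 FPKM in 5xFAD/Veh mice (SD, n = 8 each). With D-45113 the sums were 9.36 ± 1.92 FPKM in WT and 15.4 ± 2.44 FPKM in 5xFAD mice. Mouse 1F weighed on the vehicle means. Without it the sum was 28.3 ± 8.20 FPKM (SD, n = 7), and the order of the first 5 was the same, with Gbp2 at 6.18 FPKM, Igtp at 5.91, Irgm1 at 5.47, Gbp3 at 4.54 and Iigp1 at 1.964. The first 4 still overlapped in their mean ± SD, and a gap then separated Gbp3 from Iigp1.

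The next comparison asks what D-45113 changed in 5xFAD mice. Compared to 5xFAD/Veh mice, 6 of the 10 members fell in 5xFAD/D-45113 mice and 0 rose, where 1.75% of all genes tested fell. They were Gbp2, Gbp3 and Gbp5 of chromosome 3 and the 3 immunity-related GTPases Igtp, Irgm1 and Iigp1. Gbp7 and the chromosome 5 members Gbp4, Gbp6 and Gbp9 did not pass the test. The median log2 fold change of the members was -1.31, against 0.01 over all genes, and 0 of 10 were positive. This comparison uses the same 5xFAD/Veh mice as the one above.

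Gbp5 had the smallest p. It ranged from 2.27 to 6.52 CPM (median 4.11) in 5xFAD/D-45113 mice, and the lowest 5xFAD/Veh mouse had 7.55 CPM. All 8 treated mice were thus below all 8 vehicle mice, and Gbp5 fell by 1.61 on the log2 scale (SE 0.277, adjusted p = 0.00186, edgeR). Gbp3 ranged from 4.28 to 8.98 CPM (median 7.10) in treated mice, against a lowest vehicle value of 9.25 CPM. Here too the groups did not overlap (log2 fold change -1.24, SE 0.270, adjusted p = 0.00888). Such a separation was found for these 2 of the 10 members and for 0.221% of all genes tested. Gbp2 ranged from 3.84 to 10.4 CPM (median 7.86) in treated mice, and 7 of 8 were below the lowest 5xFAD/Veh mouse (log2 fold change -1.80, SE 0.348, adjusted p = 0.00465). Its mean in treated mice was 28.6% of that in 5xFAD/Veh mice, but its median was 61.1%, as the vehicle mean includes mouse 1F.

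Irgm1 ranged from 18.3 to 25.96 CPM (median 19.8) in 5xFAD/D-45113 mice, the narrowest spread of the 4 groups relative to its mean. Of these mice 7 were below the lowest 5xFAD/Veh mouse, and the log2 fold change was -0.89 (SE 0.203, adjusted p = 0.0117). Igtp had 4.96 to 8.50 CPM (median 5.94), again with 7 of 8 mice below the lowest vehicle mouse (log2 fold change -1.54, SE 0.335, adjusted p = 0.00888). For Iigp1 the range was 1.59 to 6.18 CPM (median 2.92), and 5 of 8 treated mice were below the lowest vehicle mouse (log2 fold change -1.68, SE 0.433, adjusted p = 0.0237). Among the members without a call, Gbp4 differed by -1.38 on the log2 scale (SE 0.476, adjusted p = 0.0909). It had 0 counts in mouse 4F, which at its depth allows up to 0.262 CPM (counting error only). Gbp7 had -0.80 (adjusted p = 0.169), Gbp6 had -0.76 (adjusted p = 0.350) and Gbp9 had -0.47 (adjusted p = 0.286). The 95% interval of Gbp4 (-2.31 to -0.45) includes the values of all members that were called. That of Gbp9 (-0.96 to 0.01) includes the value of Irgm1 alone among them.

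Without 5xFAD/Veh mouse 1F, 5 members were called lower, where 1% of all genes were. These were Gbp5 (log2 fold change -1.20, adjusted p = 0.00522), Gbp2 (-1.07, adjusted p = 0.0102), Gbp3 (-1.10, adjusted p = 0.0274), Igtp (-0.94, adjusted p = 0.0343) and Irgm1 (-0.60, adjusted p = 0.0378). Iigp1 was no longer called (-0.88, adjusted p = 0.149), nor was it without 5xFAD/D-45113 mouse 4F. The members with no call had -0.77 (Gbp4), -0.70 (Gbp7), -0.46 (Gbp6) and -0.26 (Gbp9) without mouse 1F. Leaving out treated 5xFAD mice 1M and 4F left 3 members called, where 188 of 17112 genes were called in either direction. The 3 were Gbp2 (-1.65, adjusted p = 0.0321), Gbp5 (-1.45, adjusted p = 0.0171) and Igtp (-1.47, adjusted p = 0.0496). Gbp3 (-1.12, adjusted p = 0.0531), Irgm1 (-0.84, adjusted p = 0.0582) and Iigp1 (-1.50, adjusted p = 0.109) were not. The members' levels in 1M and 4F were mostly within the range of WT mice. Irgm1 was above it in both, at 18.6 and 18.3 CPM against at most 12.7 CPM in any WT mouse. Gbp2 (6.06 and 3.84 CPM), Gbp3 (5.57 and 4.28), Gbp5 (3.18 and 2.27), Gbp7, Igtp and Iigp1 were within it in both. Gbp6 (3.06 CPM) and Gbp9 (6.12) were above it in 1M and within it in 4F. Gbp4 was within it in 1M and at 0 counts in 4F. For Gbp5 other treated 5xFAD mice were within it too. Scores of plaque-associated microglia (the mean log2 CPM of 10 genes relative to the mean over all mice) were 1.10 (1M) and 0.95 (4F). These were within the range of the treated 5xFAD group (0.76 to 1.89) and above the highest WT mouse (-1.20).

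**Figure D3:**
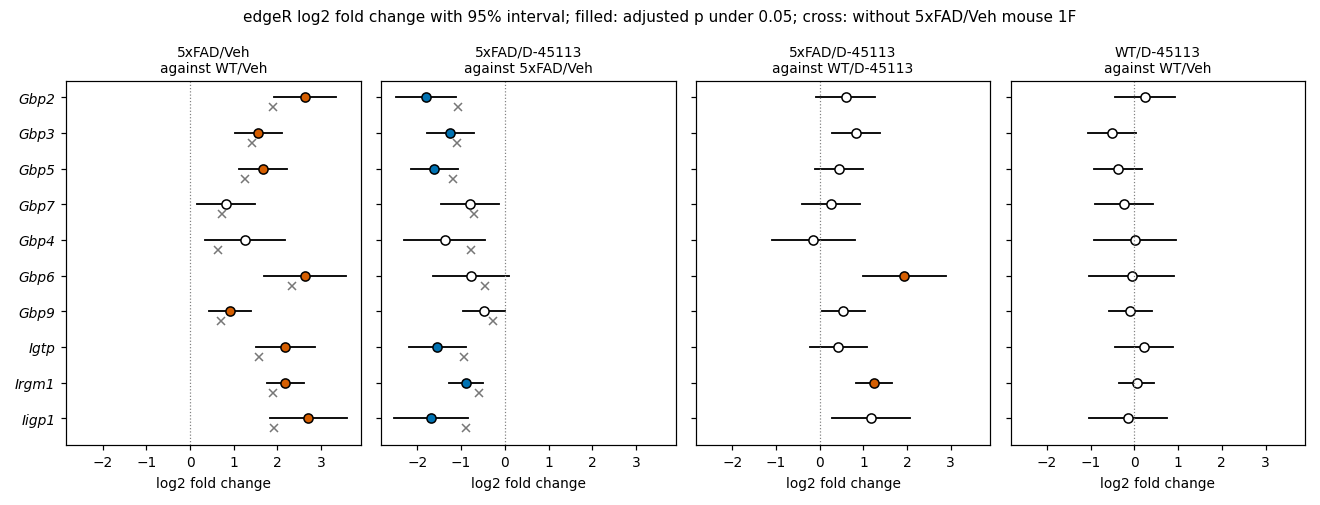
Log2 fold changes of the members (x axis) with 95% intervals in 4 comparisons; filled circles passed an adjusted p under 0.05 in edgeR and crosses give the value without 5xFAD/Veh mouse 1F. In the first panel 8 circles are filled to the right of 0, in the second 6 are filled to the left, in the third Gbp6 and Irgm1 are filled, and in the fourth none is.

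Several marker groups moved with the treatment in 5xFAD mice. Of 15 microglia markers, 5 fell (Fcrls, Itgam, Tmem119, Csf1r and P2ry12) and the median log2 fold change was -0.44, with summed levels of 1573 to 2073 CPM in 5xFAD/Veh and 1051 to 1735 CPM in 5xFAD/D-45113 mice. Csf1r, the target of the conjugated inhibitor, fell by 0.44 on the log2 scale (SE 0.120, adjusted p = 0.0323). Without 5xFAD/Veh mouse 1F 3 of the 5 were called, and without 1M and 4F 1 (Fcrls). Of 10 genes of plaque-associated microglia, 2 fell. The 10 thalamus markers summed to 174 to 510 CPM in 5xFAD/Veh and 331 to 1849 CPM in 5xFAD/D-45113 mice, with 2 called higher and a median log2 fold change of 1.62. The 10 choroid plexus markers summed to 35.0 to 812 CPM and 63.6 to 5226 CPM, with 2 called higher and a median of 2.42. Of the neutrophil markers 3 passed the filter, and S100a8 (3.00, adjusted p = 0.00687, edgeR) and S100a9 (2.76, adjusted p = 0.0169) were called higher. In 5xFAD/Veh mice S100a8 was at most 0.296 CPM and S100a9 at most 0.482 CPM. The 10 genes summed to 13.7 to 26.6 CPM in 5xFAD/Veh and 12.1 to 19.2 CPM in 5xFAD/D-45113 mice. Most of the sum in 5xFAD/Veh mice was Csf3r (12.7 to 25.0 CPM), so it does not describe the other genes. Of 10 markers of border macrophages and monocytes 9 had a positive value (median 1.13) and Mrc1 was called higher (1.13, adjusted p = 0.0446). Of 10 endothelial markers Vwf was called higher (1.27, adjusted p = 0.00663). With D-45113 in WT mice, 9 of 10 border macrophage and monocyte markers were positive too (median 1.69). So were 3 of 3 neutrophil markers tested there (median 2.83), with 0 called in either list. Of 10 neuron markers 0 were called and 0 had a positive value (median -0.19), with sums of 4994 to 7441 CPM in 5xFAD/Veh and 3374 to 6138 CPM in 5xFAD/D-45113 mice. The part of these groups in the members' change was not tested. With the scores of thalamus and choroid plexus as covariates, 0 of the 10 members and 2 of 16723 genes were called in edgeR, although 8 members had an unadjusted p under 0.05, as did 7.54% of all genes. The log2 fold changes were then -1.76 for Gbp2 (adjusted p = 0.236), -1.28 for Gbp5 (adjusted p = 0.217), -0.96 for Gbp3 (adjusted p = 0.436), -1.39 for Igtp (adjusted p = 0.337), -0.72 for Irgm1 (adjusted p = 0.393) and -1.41 for Iigp1 (adjusted p = 0.598). T and NK cell markers other than Cd4 were scarce. Of 15, 4 passed the filter and 0 were called. The 15 genes summed to 10.8 to 47.3 CPM in 5xFAD/Veh and 4.84 to 26.2 CPM in 5xFAD/D-45113 mice. Cd4 was a large part of the sum in 5xFAD/Veh mice, so the sum does not describe the other genes. Its level was 26.95 CPM in mouse 1F, with a median of 20.49 CPM in the other mice of that group. Cd3e was at most 0.759 CPM and at 0 in 1 mouse of each of these groups.

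In WT mice, the members were compared between D-45113 and vehicle. In edgeR 0 of 10 were called, against 0.0239% of all genes in either direction, and 0 of 10 had an unadjusted p under 0.05. DESeq2 and limma voom also called 0. The median log2 fold change was -0.08, with 4 of 10 positive. Irgm1 had 8.48 ± 2.19 CPM with vehicle and 8.80 ± 2.17 CPM with D-45113 (SD, n = 8 each), a log2 fold change of 0.05 with a 95% interval of -0.36 to 0.46. The interval was wider for Gbp2 (-0.45 to 0.94) and Iigp1 (-1.04 to 0.75), so that for Iigp1 a change as large as that of Irgm1 in 5xFAD mice lies within the interval. Gbp3 had the lowest value, -0.51 (interval -1.05 to 0.03, adjusted p = 0.765). Gbp6 had 0 counts in WT/D-45113 mouse 3F, which allows up to 0.174 CPM.

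Under D-45113, 5xFAD mice were compared with WT mice. Irgm1 and Gbp6 were higher in 5xFAD/D-45113 than in WT/D-45113 mice, and these 2 calls of 10 stand beside 3.72% of all genes. Irgm1 ranged from 6.21 to 12.7 CPM (median 8.06) in WT/D-45113 mice and from 18.3 to 25.96 CPM in 5xFAD/D-45113 mice. It was the only member for which every mouse of one group was above every mouse of the other, as for 0.993% of all genes (log2 fold change 1.25, SE 0.208, adjusted p = 0.000107, edgeR). Gbp6 had 0.496 ± 0.416 and 1.88 ± 1.03 CPM (SD, n = 8 each), with 4 of 8 5xFAD/D-45113 mice above the WT/D-45113 maximum (log2 fold change 1.94, SE 0.483, adjusted p = 0.0126), and its shared sequence applies here too. Not called were Iigp1 (1.18, adjusted p = 0.135), Gbp3 (0.83, adjusted p = 0.0750, but 0.0409 and called in DESeq2), Gbp2 (0.59, adjusted p = 0.381), Gbp5 (0.44, adjusted p = 0.421) and Igtp (0.43, adjusted p = 0.541). The median over the members was 0.57, and 9 of 10 were positive. Of the 15 microglia markers, 11 were higher in this comparison, and their part in the result was not tested.

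Whether the effect of D-45113 differed between the genotypes was tested by the interaction of genotype and treatment, the log2 change with D-45113 in 5xFAD mice minus that in WT mice. In edgeR 0 of 10 members passed, as did 0% of all genes. An unadjusted p under 0.05 was reached by 6 members (Gbp2, Gbp4, Gbp5, Igtp, Irgm1 and Iigp1) and by 9.51% of all genes. The interaction was -2.04 for Gbp2 on the log2 scale (SE 0.494, unadjusted p = 0.000232, adjusted p = 0.312) and -1.75 for Igtp (SE 0.475, adjusted p = 0.312). DESeq2 called Gbp2 alone of the members (adjusted p = 0.0276) and 14 of 16723 genes in all, and limma voom called 0. Without 5xFAD/Veh mouse 1F edgeR again called 0. An unadjusted p under 0.05 was then reached by 4 members in place of 6, and by 8.91% of all genes. The values were -1.31 for Gbp2 (adjusted p = 0.284) and -1.15 for Igtp (adjusted p = 0.394). The interaction thus failed the correction in edgeR. The value was negative for 10 of 10 members (median -1.08, against 0.02 over all genes). The members share libraries and vary together, so these signs are not separate observations.

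The labels also give the sex of each mouse. In 5xFAD/Veh mice Gbp2 had 37.3 ± 40.7 CPM in females and 14.04 ± 4.65 CPM in males, and in 5xFAD/D-45113 mice it had 6.10 ± 2.07 and 8.58 ± 1.82 CPM (SD, n = 4 each). The female vehicle mean includes mouse 1F and was 17.3 ± 10.1 CPM without it (SD, n = 3). The test of whether the drug effect in 5xFAD mice depended on sex called 0 of 10 members and 0% of all genes in edgeR, with an unadjusted p under 0.05 for Gbp2 (-1.88, the log2 change in females minus that in males) and Iigp1 (-1.71) and for 5.4% of all genes. DESeq2 and limma voom called 0 here. For the interaction of sex and genotype under vehicle, 0 of 10 members and 0% of genes passed, and Gbp2 and Iigp1 had an unadjusted p under 0.05, as did 9.04% of genes. Without mouse 1F both sex interactions again called 0 members, and 0 members had an unadjusted p under 0.05 in either. Gbp2 then had -0.78 and Iigp1 -0.45 in the interaction of sex and treatment. Within 1 sex there were 4 mice a group. In females 3 members were lower with D-45113 in 5xFAD mice, namely Gbp2 (-2.58, adjusted p = 0.0431), Gbp3 (-1.60, adjusted p = 0.0124) and Gbp5 (-1.98, adjusted p = 0.0414). Over all genes 116 of 17375 were called in this test, 70 of them higher. With mouse 1F left out of the females, 0 members were called in edgeR (Gbp3 -1.39, adjusted p = 0.0614, and Gbp2 -1.49, adjusted p = 0.129), and 5 genes of 17827 were called in all. An unadjusted p under 0.05 was reached by 6 members, and the share over all genes was not counted in this setting. With mouse 1F among the females it was reached by 9 members and 14.7% of genes. In males 0 members were called, with Gbp2 at -0.71, Gbp5 at -1.12 and Irgm1 at -0.60, and 0 genes of 16697 were called in all, while 4 members and 9.8% of genes had an unadjusted p under 0.05.

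The members varied together from mouse to mouse. After each gene was centred on the mean of its group, Pearson's r between members over the 32 mice ranged from 0.17 (Gbp3 with Gbp6) to 0.76 (Gbp2 with Igtp), with a median of 0.45 over the 45 pairs. Without mouse 1F the range was 0.02 to 0.58 with a median of 0.32 over 31 mice. These points share libraries, depth and tissue composition, and r is given as a description. The score of the members, the mean of their log2 CPM relative to the mean over all mice, was 0.46 to 2.73 in 5xFAD/Veh mice and -0.72 to 0.35 in 5xFAD/D-45113 mice. Within groups it varied with the score of the other interferon-inducible GTPases (r = 0.82, and 0.74 without mouse 1F) and less with that of the interferon-gamma pathway (r = 0.65, and 0.40). Of the cell type lists, the score of the neuron markers followed that of the members (r = 0.57, and 0.67 without mouse 1F), while the r of the others was -0.27 to 0.09 (-0.18 to 0.28 without mouse 1F) and that of the microglia markers -0.05 (0.16). Mouse 1F had the highest score of the members and the lowest microglia score of its group, 0.56.

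**Figure D4:**
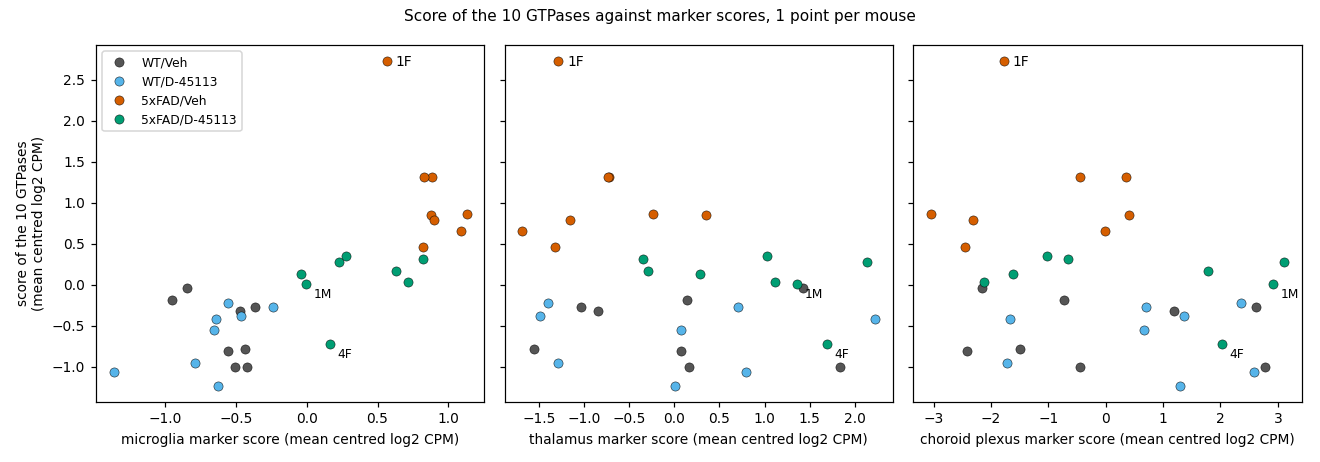
Score of the 10 members (y axis, mean centred log2 CPM) against the scores of microglia, thalamus and choroid plexus markers (x axes), 1 point per mouse, coloured by group. The 5xFAD/Veh mice lie between 0.46 and 2.73 on the y axis, with mouse 1F alone at the top, and mice 1M and 4F of 5xFAD/D-45113 are named because their Thy1 level lay within the WT range.

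Of genes outside the members with a mean of at least 1 CPM (14664 genes), the 8 with the pattern most like theirs over the 32 mice, by the same centred correlation, were Cd274 (r = 0.83), Usp15 (0.72), Irgm2 (0.70), Bclaf3 (0.69), A730017L22Rik (0.69), Sel1l (0.68), Exoc3 (0.68) and Rprd1b (0.68). Cd274 encodes the checkpoint ligand PD-L1, an interferon-gamma target, and Usp15 encodes a deubiquitinase. Without mouse 1F their r was 0.56 to 0.74. Usp15 then ranked at place 40 and Cd274 at place 104, while Irgm2 and Rprd1b fell to places 889 and 883.

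The rest of the family was followed through a list of 19 genes, called here the other interferon-inducible GTPases. Whether each of them responds to interferon was not tested. Of the 19 genes 18 were in the files and 11 passed the filter. In 5xFAD/Veh compared to WT/Veh mice 6 of the 11 rose and 0 fell (median log2 fold change 1.71). Irgm2, the third regulatory immunity-related GTPase, had a log2 fold change of 1.51 (adjusted p = 5.91e-06, edgeR), with 6.25 ± 1.47 CPM in WT/Veh and 17.8 ± 8.14 CPM in 5xFAD/Veh mice (SD, n = 8 each). Ifi47 rose by 2.06 on the log2 scale, Tgtp2 by 3.34, Gm12250 by 2.72 and Gm4951 by 2.74, all of them immunity-related GTPases. Mx1, an antiviral dynamin-like GTPase, rose by 3.605 from a level of 0.0704 ± 0.0961 CPM (SD, n = 8). No call was made for Gvin1 (1.71), Mx2 (1.12), Tgtp1 (0.84), Gm4070 (0.05) and Irgq (-0.21). In 5xFAD/D-45113 compared to 5xFAD/Veh mice 3 of the 11 fell, Irgm2 (-0.996, adjusted p = 0.00888), Tgtp2 (-2.46, adjusted p = 0.0237) and Ifi47 (-1.55, adjusted p = 0.0280), and the median was -0.73. Gm12250 had -2.05 (adjusted p = 0.0585) and Mx1 had -0.46 (adjusted p = 0.735). Gbp2b, Gbp8, Gbp10, Gbp11, Gm4841, F830016B08Rik and Irgc1 had too few counts to be tested, and Gbp10 was highest in mouse 1F at 4.03 CPM. Without mouse 1F the 6 genes were called higher again, and of the 3 that fell Irgm2 alone was called. Leaving out treated mice 1M and 4F, or adding the 2 tissue scores as covariates, left 0 called lower.

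Genes of the interferon-gamma pathway were tested next to the members. Ifng itself was at 0 counts in 7 of 8 mice of each group. Of 30 listed genes 27 passed the filter, and 17 rose and 0 fell in 5xFAD/Veh compared to WT/Veh mice, with a median log2 fold change of 0.92. Among those with the smallest p were the transcription factor genes Irf9 (1.54, adjusted p = 1.94e-09) and Irf8 (1.965), the peptide transporter gene Tap1 (2.12), the immunoproteasome gene Psmb8 (2.11) and the invariant chain gene Cd74 (4.51). In 5xFAD/D-45113 compared to 5xFAD/Veh mice 5 fell and 0 rose (median -0.60). Among them were Tap1 (-1.08, adjusted p = 0.00465, edgeR), Irf8 (-0.86, adjusted p = 0.0113), the chemokine gene Cxcl9 (-2.87, adjusted p = 0.0279) and Stat2 (-0.72, adjusted p = 0.0374). Cxcl9 went from 1.85 ± 1.60 CPM in 5xFAD/Veh to 0.267 ± 0.257 CPM in 5xFAD/D-45113 mice (SD, n = 8 each). Irf1, a factor that binds ISREs, had -0.81 (adjusted p = 0.0508). Without mouse 1F, 16 genes were called higher with the genotype and 4 lower with D-45113 (Stat2 was not). Leaving out mice 1M and 4F of the treated group left 2 called lower, Tap1 among them, and with the tissue scores as covariates 0 were called lower.

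Partners of the GTPases in autophagy and inflammasomes were also followed. Of 26 listed genes 25 passed the filter, and 8 rose in 5xFAD/Veh compared to WT/Veh mice. They included the NADPH oxidase genes Cybb (3.56, adjusted p = 3.65e-11, edgeR) and Cyba (1.93), the inflammasome adaptor gene Pycard (1.69), the pore-forming gasdermin gene Gsdmd (1.61), the ISG15-conjugating enzyme gene Ube2l6 (1.16) and the ubiquitin ligase gene Trim21 (0.96). No Atg gene of the list was called. In 5xFAD/D-45113 compared to 5xFAD/Veh mice 0 of the 25 were called in edgeR, and the smallest adjusted p was that of the autophagy gene Becn1 (-0.30, adjusted p = 0.0990). Cybb had 9.23 ± 2.46 CPM in 5xFAD/Veh and 10.01 ± 3.38 CPM in 5xFAD/D-45113 mice (SD, n = 8 each).

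The RNA of mouse 1F stood apart in these genes and not in all immune genes. Its level of Gbp2 was 97.0 CPM, and no other 5xFAD/Veh mouse was above 28.9 CPM. For Igtp these values were 61.7 and 20.1 CPM, and for Iigp1 42.5 and 10.9 CPM. Across the members, 8 of 10 were highest in 1F and over 2-fold above the median of the other 7 mice, as were 2.98% of all genes. Ifi47 (18.2 CPM, against a median of 2.85), Tgtp2 (11.1 against 1.55), Irf1 (23.99 against 7.40), Cxcl10 (29.8 against 5.36) and Cd274 (31.9 against 7.27) were high as well. In all, 12 of 30 interferon-gamma pathway genes and 10 of 18 other interferon-inducible GTPases were highest in 1F. Those that were not include Psmb8 (14.9 against 11.7 CPM), Irf9 (20.8 against 20.6) and Cd74 (53.2 against 81.5). Ifng had 0 counts. Of 15 microglia markers 2 and of 10 genes of plaque-associated microglia 0 were highest in 1F.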

How the data were processed

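Hippocampal RNA of 32 mice was analysed. Library preparation, sequencing and mapping were done by Novogene, per the study's methods, and the submitters' processing notes name the build mm10. No aligner, counter or strand setting is named in the sources used. The values deposited by the authors are raw counts and FPKM for each gene. FPKM equalled counts per length and depth times 1 constant per library (0.920 to 1.11), and 0 columns were left unused. Groups and sex came from the sample labels, with 1 library per mouse.

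Counts were fitted with edgeR 4.0.16 in R 4.3.3 (filterByExpr, TMM, robust quasi-likelihood fit of 4 groups, and of 8 groups for the sex interactions, where 17831 genes were tested). Benjamini-Hochberg adjustment ran over all genes tested, with calls at 0.05. No libraries were identical (highest correlation 0.973). Standard errors of log2 fold changes come from the fit, and 95% intervals are normal. Alternatives used RLE size factors, DESeq2 1.42.0, limma 3.58.1 (voom, and limma trend on log2(FPKM + 1), also with a filter of 0.5 FPKM, and on log2(FPKM + 0.1), where fold changes are on that scale), other filters, covariates, subsets, the replicate number as a block and each mouse left out. The steps were tested on simulated counts. Python 3.11.15 with matplotlib 3.10.9 drew the figures.

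The members, lists and tests were chosen with earlier results of these data known, and the counts of the other lists without single libraries or with tissue scores as covariates were added after seeing the data. Genes named are the members, the other GTPases, up to 6 genes of each pathway list with the smallest p in each of the comparisons of 5xFAD/Veh with WT/Veh and with 5xFAD/D-45113 mice, defining cell markers, and the 8 genes most like the members. Further genes in the account of mouse 1F (Cxcl10 and Gbp10) were chosen after their values were seen. Shared sequence was counted in 100-base stretches of GENCODE vM21 transcripts. Coordinates are those of the files. Some genes named by this rule are not reported here.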

Additional observations from a re-analysis of the deposited data

Results flagged for a closer look

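The levels of the members were tested for a mouse far from the others in 40 sets of 8 mice (10 genes in 4 groups), and 8 sets held one. In 6 of them it was 5xFAD/Veh mouse 1F, the highest of its group, with 97.0 CPM of Gbp2 (next highest mouse 28.9), 35.8 CPM of Gbp5 (12.3), 8.47 CPM of Gbp4 (2.41), 61.7 CPM of Igtp (20.1), 87.9 CPM of Irgm1 (42.4) and 42.5 CPM of Iigp1 (10.9). In the other 2 it was WT/Veh mouse 2M, with 7.51 CPM of Igtp (next highest 4.74) and 3.38 CPM of Iigp1 (1.72). The cut-off would pick about 1 in 20 sets, or 2 of the 40, if values were normally distributed and the sets independent. These sets share mice and the members vary together, so that number is no baseline for them.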

How the results depend on the processing

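Under 14 alternatives 6 to 8 members were called for 5xFAD/Veh against WT/Veh mice. Over all genes 328 to 746 were called there in either direction, of 14587 to 33154 tested. For D-45113 against vehicle in 5xFAD mice 6 members were called, and the number was 3 in females only, 0 in males only, 0 with thalamus and choroid plexus scores as covariates and 3 with mice 1M and 4F of 5xFAD/D-45113 left out. In the same settings 116 of 17375, 0 of 16697, 2 of 16723 and 188 of 17112 genes were called in either direction. Without these changes 662 of 16723 genes were, and 1126 of 16723 by DESeq2. In the other alternatives 4 to 7 members and 361 to 1126 genes were called, and DESeq2 added Gbp4 (adjusted p = 0.0388). For 5xFAD/D-45113 against WT/D-45113 mice, 2 members were called, and 1 in females only, 1 in males only and 1 by limma trend on log2(FPKM + 1) with or without a filter of 0.5 FPKM, while DESeq2 called 3, adding Gbp3 (adjusted p = 0.0409). Over all genes 847 of 16723 were called in the main fit, 207 of 17375 in females and 204 of 16697 in males. By limma trend 603 of 33154 and, with the filter, 945 of 14587 genes were called, and by DESeq2 1150 of 16723. With females only and 5xFAD/Veh mouse 1F left out, an alternative added after seeing the data, 5 members were called with the genotype under vehicle and 0 with D-45113 in 5xFAD. Over all genes 275 and 5 of 17827 were called there, in either direction. For the interaction of genotype and treatment DESeq2 called 1 member in place of 0, and 14 of 16723 genes in all. DESeq2 gave no adjusted p for the members in the interaction of sex and genotype. No log2 fold change of a called member changed sign in any alternative.

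With each mouse left out in turn, 7 to 8 members were called for 5xFAD/Veh against WT/Veh, 5 to 6 for 5xFAD/D-45113 against 5xFAD/Veh, 2 to 3 for 5xFAD/D-45113 against WT/D-45113, and 0 to 0 for D-45113 against vehicle in WT mice and for each of the 3 interactions. Over all genes the first 4 comparisons had 583 to 680, 355 to 1056, 585 to 1152 and 2 to 7 calls in either direction. From 16847 to 16909 genes were tested in these fits. With the replicate number as a block the counts for these 4 comparisons were 8, 5 (without Iigp1, adjusted p = 0.0665), 2 and 0, and 0 for the interaction of genotype and treatment. Over all genes 675, 717, 941 and 3 of 16723 were called in the 4 comparisons with the block. Mice with the same number had a median r of 0.05 over 48 pairs, of which 17 were over 0.1. For the 336 other pairs the median was -0.01, and 67 were over 0.1. Mice with the same number are also of the same sex, so these values do not settle whether the numbers pair the mice.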
